A study of Mus musculus with 7 samples.

Results

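The core circadian clock genes are 10 mouse genes, Arntl, Clock, Per1, Per2, Per3, Cry1, Cry2, Nr1d1, Nr1d2 and Dbp, chosen by name out of 21418 autosomal protein-coding genes of the mm9 annotation. For each gene, the annotated span was extended by 50 kb on each side, and every CTCF and Rad21 peak that overlaps this window was taken. The peaks come from chromatin immunoprecipitation with sequencing (ChIP-seq) of livers from 8-week-old female CD-1 (Crl:CD1(ICR)) mice, untreated as far as the labels say, with 4 libraries for CTCF and 3 for Rad21, a subunit of cohesin. All values describe 1 merged peak list per antibody, so no value has a replicate error and no test between groups was made. The time of day at which the livers were taken is not given in the sources used here, and both lists describe whole liver nuclei of all cell types together.

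The clock of each cell is a loop of transcription and repression. Arntl (also called Bmal1) and Clock form a heterodimer that binds E-box elements and activates the Per and Cry genes, whose proteins return to the nucleus and repress the heterodimer. Nr1d1 and Nr1d2, the nuclear receptors REV-ERB alpha and beta, bind RORE elements and repress Arntl, and Dbp is an output factor that binds D-box elements. CTCF is a DNA-binding protein whose oriented motif stops the movement of cohesin along chromatin, and a pair of motifs that face each other across an interval is the usual arrangement at the ends of a chromatin loop. A site with both proteins is called shared here (cohesin and CTCF, CAC), a CTCF peak without a Rad21 peak is Lone CTCF, and a Rad21 peak without a CTCF peak is cohesin-only (cohesin without CTCF, CNC).

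The promoters of 5 of the 10 genes held the exact letters of a clock element within the 300 bp around an annotated transcript start (250 bp before it and 50 bp after). The search used the E-box CACGTG, the D-box TTATGTAA and the RORE core TAGGTCA on both strands. Every annotated start was searched, so a gene with more starts had more windows. The share of all genes with any of these elements was not computed. Cry1 and Per1 held an E-box, which 10.7% of all genes did, Per2 and Per3 held a D-box (1.37% of all genes), and Dbp held a RORE core (3.78% of all genes). The sequences are printed because the promoter peaks below are described by whether they cover these elements. They are read from mm9 on the strand of the gene, with the element in capitals.
Cry1 E-box, chr10:84647834-84647879, minus strand: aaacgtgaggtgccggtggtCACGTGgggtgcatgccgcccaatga
Per1 E-box, chr11:68908549-68908594, plus strand: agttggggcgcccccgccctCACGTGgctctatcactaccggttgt
Per1 E-box at a second start, chr11:68912265-68912310, plus strand: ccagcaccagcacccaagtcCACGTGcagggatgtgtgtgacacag
Per2 D-box, chr1:93355999-93356046, minus strand: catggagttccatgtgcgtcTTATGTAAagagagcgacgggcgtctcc
Per3 D-box, chr4:150418905-150418952, minus strand: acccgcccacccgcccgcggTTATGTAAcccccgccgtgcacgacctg
Per3 D-box farther from the start, chr4:150418952-150418999, minus strand: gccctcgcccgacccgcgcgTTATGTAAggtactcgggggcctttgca
Dbp RORE core, chr7:52960249-52960295, plus strand: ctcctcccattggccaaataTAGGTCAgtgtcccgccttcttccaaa
Of the printed elements, only the Per2 D-box, 119 bp before the start, lay inside both a CTCF and a Rad21 peak, at 161 bp and 166 bp from their summits. The E-box 165 bp before the second start of Per1 lay inside a shared Rad21 peak, 203 bp from its summit, and in no CTCF peak. The Cry1 E-box, the other Per1 E-box, both Per3 D-boxes and the Dbp RORE core above lay in no peak. Within 150 bp of the summits, no E-box was found at any of the 15 shared CTCF or 17 shared Rad21 promoter peaks of the clock genes (7.24% and 6.74% of all such promoter peaks hold one). A RORE core 76 bp after the start of Arntl, the promoter on which REV-ERB acts, lay inside both promoter peaks there, 126 bp from the CTCF summit and 89 bp from the Rad21 summit. With a further RORE core of Dbp, 233 bp after a start and outside the called peaks, 2 of the 17 Rad21 promoter summits had this element within 150 bp, against 1.41% of all. For CTCF it was 1 of the 15 summits, at Arntl, against 1.45% of all. No D-box lay within 150 bp of any of these summits (0.339% of all for CTCF and 0.442% for Rad21).

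CTCF motifs were searched within 100 bp of peak summits with a 20 bp matrix learned from other CTCF peaks of the same list, at a score that 1% of 55849 background windows reach. The matches below are those at the motif-bearing gene-body peak with the highest CTCF fold of Arntl, Per2, Per3 and Cry1, at the pair of flanks of Per1 and of Dbp, and 3 matches around Nr1d1 and Nr1d2 that are referred to later. Each is printed on the strand of the motif, with the 20 bp match in capitals.
Arntl intron, chr7:120394378-120394417, minus strand: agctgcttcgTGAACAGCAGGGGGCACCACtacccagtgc
Per2 intron, chr1:93325381-93325420, plus strand: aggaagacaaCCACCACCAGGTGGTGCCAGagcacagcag
Per3 intron, chr4:150381244-150381283, minus strand: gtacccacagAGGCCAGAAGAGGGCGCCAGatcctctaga
Cry1 intron, chr10:84617115-84617154, plus strand: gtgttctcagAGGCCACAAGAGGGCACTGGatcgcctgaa
Per1 upstream flank, chr11:68880558-68880597, plus strand: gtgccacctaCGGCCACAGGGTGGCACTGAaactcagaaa
Per1 downstream flank, chr11:68964103-68964142, minus strand: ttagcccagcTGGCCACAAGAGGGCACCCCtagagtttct
Dbp upstream flank, chr7:52938278-52938317, minus strand: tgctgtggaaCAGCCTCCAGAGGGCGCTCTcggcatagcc
Dbp downstream flank, chr7:52994916-52994955, plus strand: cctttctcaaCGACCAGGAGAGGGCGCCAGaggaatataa
Thra intron downstream of Nr1d1, chr11:98616136-98616175, minus strand: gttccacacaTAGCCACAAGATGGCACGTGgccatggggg
Lone CTCF peak upstream of Nr1d1, chr11:98649261-98649300, minus strand: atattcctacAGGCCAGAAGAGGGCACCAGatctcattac
Lone CTCF peak upstream of Nr1d2, chr14:19092991-19093030, plus strand: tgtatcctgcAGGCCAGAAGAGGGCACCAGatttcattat
The last 2 matches are identical over all 20 bp, and no other match in the windows or flanks was shared. Closely similar matches lay at other clock genes, among them the Per3 and Cry1 intron matches printed above. The match in the Thra intron ends in the letters of an E-box, the only one of the 44 motif matches that does. Of the 44, 16 contain a CpG inside the match, and the share over all motif-bearing peaks of the list was not computed.

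The windows of the 10 genes held 124 CTCF peaks and 119 Rad21 peaks. Of the CTCF peaks, 94 were shared (75.8%, against 73.7% of the whole list) and 30 were Lone CTCF. Of the Rad21 peaks, 98 were shared (82.4%, against 73.6%) and 21 were cohesin-only (17.6%, against 26.4%). Taken per gene window, the median cohesin-only share of Rad21 peaks was 19.1% against 16.7% over all genes, and the median density was 1.21 against 0.752 cohesin-only peaks per 100 kb. The median clock gene had 12 CTCF peaks in its window, from 5 at Clock to 19 at Per1, against a median of 7 over all genes. Per 100 kb of window the median was 9.61 CTCF peaks against 5.26 over all genes, and 8.82 Rad21 peaks against 4.89. Clock stood at the low end with 2.58 peaks of each list per 100 kb, while Per1 had 16.6 CTCF peaks and Nr1d1 had 17.7 Rad21 peaks per 100 kb.

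**Figure D1:**
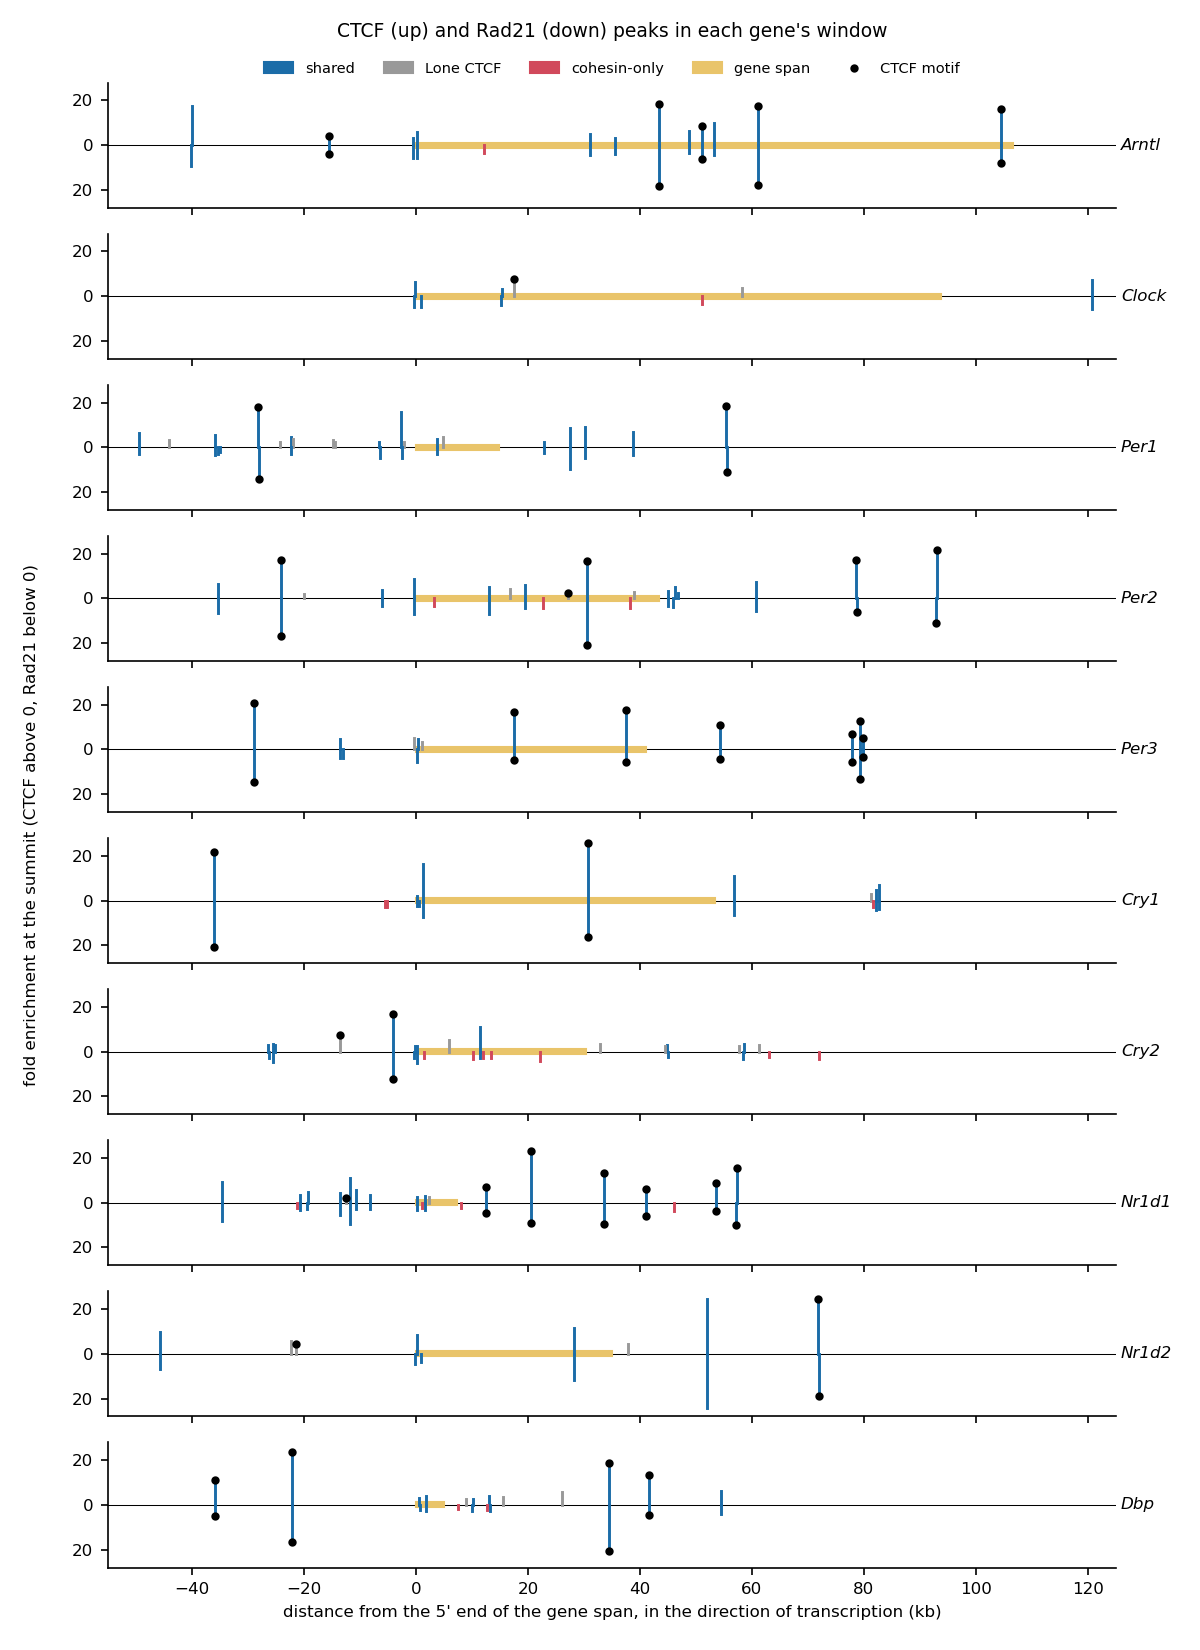
Each row is a clock gene, drawn in the direction of transcription from the 5' end of its span (yellow, x axis in kb), with the fold enrichment of each CTCF peak above 0 and of each Rad21 peak below 0. Blue bars are shared, grey bars Lone CTCF and red bars cohesin-only, and a black dot marks a CTCF motif. The tall bars with a dot lie in introns or beside the genes, the bars at 0 kb carry no dot, and no red bar exceeds a fold of 4.18.

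Many of the window peaks lay at promoters, counting those of neighbouring genes. Of the 94 shared CTCF peaks, 15 were at a promoter of the clock gene itself and 26 at that of another gene, together 43.6% against 25% of all shared CTCF peaks on autosomes. The remaining 53 lay outside promoters, had a median fold enrichment of 10.9 (10.1 for all such peaks), and 30 of them carried a CTCF motif (56.6%, against 55.3%). The 54 shared Rad21 peaks outside promoters had a median fold of 5.45 against 6.99 for all such peaks, and 30 of them carried a motif (55.6%, against 54.5%). Fold enrichment is the number of fragments at the summit over the local background, as the peak caller wrote it, with 1 added to each. Of the Lone CTCF peaks outside promoters, 5 of 23 carried a motif (21.7%, against 43% in the list), and none of the 21 cohesin-only peaks did (2.59% in the list).

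All 10 clock genes had a CTCF peak, a Rad21 peak and a shared peak within 1 kb of an annotated start of a protein-coding transcript. Over all genes, 53.7% had a CTCF peak there, 53.3% a Rad21 peak and 49.5% a shared one. The 15 shared CTCF promoter peaks of the clock genes had a median fold enrichment of 3.98, against 5.71 over 12383 shared promoter peaks, and 9 of the 15 were under that median. Their 17 shared Rad21 peaks had a median of 4.68, against 4.98 over 12457, and 10 of the 17 were under it. When only peaks with a fold enrichment of at least 5 were kept, 4 of the 10 clock genes had a shared promoter peak (Arntl, Per2, Cry1 and Nr1d2), against 25.1% of all genes. When only peaks with a −log10 q-value of at least 10 were kept, 6 of 10 had one, against 38.4%. When sharing required summits within 100 bp, 8 of 10 had one, all but Clock and Per3, against 36.9%.

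The local background recovered at these promoter peaks was high. It stood at a median of 2.82 times the genome-wide value for the shared CTCF promoter peaks of the clock genes, against 1.88 times for all, and at 2.52 against 1.92 times for Rad21. This background was recovered from each list separately and could differ between the lists at the same site. At the highest Cry1 promoter peak it was 4.61 times for CTCF and 2.52 times for Rad21. Whether it includes signal of neighbouring peaks, here and in the windows described below, was not tested. The median number of fragments at the summit was 64 against 68 for CTCF and 64 against 52 for Rad21. None of the shared promoter peaks of the clock genes carried a CTCF motif, against 14.8% of all shared CTCF promoter peaks and 13.2% of those of Rad21. At a looser score, which 5% of background windows reach, 5 of the 15 CTCF peaks passed, against 33.6% of all shared CTCF promoter peaks. Base composition also differed. GC content was taken over 300 bp around a start, at the start of each gene where it was highest. Its median was 65% over the clock genes, against 58.3% over all genes. This maximum can rise with the number of annotated starts of a gene, which was not compared. The part of GC content in the peak heights was not tested.

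**Figure D2:**
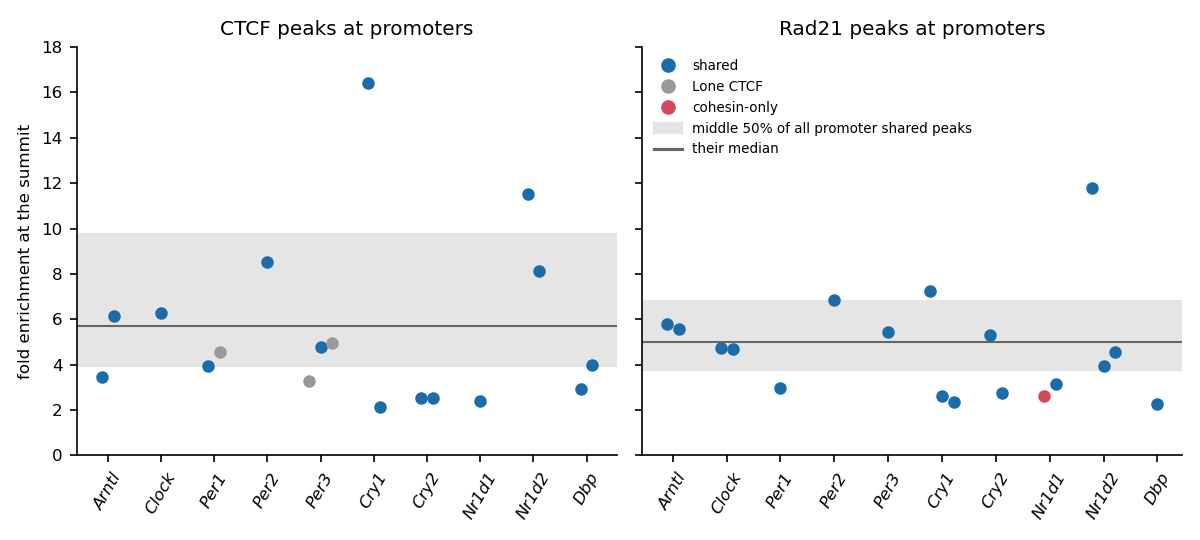
Fold enrichment (y axis) of every CTCF peak (left) and Rad21 peak (right) at a promoter of each clock gene, with the grey band covering the middle 50% of all shared promoter peaks of that list and the line their median. The highest points are Cry1 (16.4) and Nr1d2 (11.5) for CTCF and Nr1d2 (11.8) for Rad21, and 6 of the 15 shared CTCF points lie under the band.

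Arntl (ENSMUSG00000055116.6, chr7:120350979-120457636, plus strand) had 12 CTCF and 13 Rad21 peaks, and all of its CTCF peaks were shared. Its promoter held a pair of shared peaks on either side of the start. The upstream CTCF peak at chr7:120350326-120350654 had a fold enrichment of 3.47, with 5.79 for the Rad21 peak there, and the peak at chr7:120351046-120351564, in an intron, had 6.16, with 5.55 for Rad21. The highest peak of each list was inside the gene. The intron peak at chr7:120394073-120394650 had a CTCF fold of 18.6 and a Rad21 fold of 17.9 and carried the minus-strand motif printed above, 43401 bp from the start. The intron peak at chr7:120411815-120412307 had 17.6 and 17.5, and the intergenic peak upstream of the gene at chr7:120310666-120311193 had 17.7 and 9.29. Between the 2 intron peaks, a run of 3 shared intron peaks with CTCF folds of 6.34, 8.67 and 9.94 stood on a local CTCF background of 3.88 to 4.01 times the genome-wide value. A last intron peak, 104507 bp from the start and near the 3' end, had a CTCF fold of 16.2 and a motif of 21.9 bits.

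Clock (ENSMUSG00000029238.7, chr5:76639992-76733817, minus strand), the histone acetyltransferase partner of Arntl, had the fewest peaks, with 5 in each list. Its promoter was covered by 1 broad CTCF peak at chr5:76732689-76734357 (fold enrichment 6.26) and by 2 Rad21 peaks that overlap it, with folds of 4.75 and 4.68. The highest CTCF fold of the window was 7.67, at a Lone CTCF peak in an intron at chr5:76716147-76716492 that carried a motif of 14.6 bits. The highest Rad21 fold was 5.37, at the promoter of the neighbouring gene Tmem165. No peak of either list in the Clock window reached a fold above the 58.4th percentile of its list.

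Per1 (ENSMUSG00000020893.11, chr11:68908719-68923462, plus strand) encodes a repressor that also responds to light and glucocorticoids. Its 19 CTCF peaks were the most of any clock gene, and 7 of them were Lone CTCF. Within 1 kb of the 5' end of the span there was no peak of either list. The promoter peaks lay at internal annotated starts, with a shared peak at chr11:68912323-68912687 (CTCF fold 3.96, Rad21 fold 2.97) and a Lone CTCF peak at chr11:68913314-68913661 (fold 4.55). A shared peak 2.68 kb upstream of the gene, at chr11:68905824-68906329, had a CTCF fold of 15.8 at 513 fragments and a Rad21 fold of 4.53 at 90 fragments, without a CTCF motif (5.25 bits). In its own list this CTCF peak was above 81.8% of peaks by fold and the Rad21 peak above 44.6%. The highest folds of the window were at the flanking motif pair, 18.5 for CTCF downstream and 14.1 for Rad21 upstream.

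Per2 (ENSMUSG00000055866.7, chr1:93312561-93355907, minus strand) is the repressor whose loss disrupts behavioural rhythms. It had 1 peak of each list at its promoter, at chr1:93355654-93356505 for CTCF (fold enrichment 8.54, 227 fragments) and at chr1:93355534-93356495 for Rad21 (6.83, 192 fragments), and both cover the D-box. The highest Rad21 peak of the window lay in an intron, at chr1:93325142-93325677, with a fold of 20.9 that is above 96.6% of the Rad21 list. Its 522 fragments were the most of any Rad21 peak in the windows of the clock genes. The CTCF peak at that site had a fold of 16.8 and a plus-strand motif of 17.7 bits, which points against the transcription of Per2. Upstream, a shared peak at chr1:93379840-93380409 had folds of 16.9 in both lists, and the highest CTCF fold, 21.5, was downstream at chr1:93262702-93263298.

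Per3 (ENSMUSG00000028957.6, chr4:150377761-150418774, minus strand), the Per gene with the mildest known loss phenotype, had 11 CTCF and 10 Rad21 peaks, and 7 of each carried a motif. Its promoter had a shared peak at chr4:150418137-150418819 with a CTCF fold of 4.76 and a Rad21 fold of 5.45. On either side stood a Lone CTCF peak, with folds of 4.97 upstream and 3.26 in the intron, and the 2 D-boxes lay in the gap between the upstream and the shared peak. A pair of intron peaks, at chr4:150381034-150381512 and chr4:150401057-150401527, had CTCF folds of 17.4 and 16.5 with Rad21 folds of 5.36 and 4.7. Both motifs pointed along the transcription of Per3. The highest folds were 20.5 for CTCF and 14.4 for Rad21, at the upstream flank in an intron of Camta1.

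Cry1 (ENSMUSG00000020038.9, chr10:84594447-84647799, minus strand) encodes the stronger of the cryptochrome repressors. It held the highest CTCF peak of all the windows, in an intron at chr10:84616842-84617352, with a fold enrichment of 25.5 that is above 98.6% of the CTCF list. Rad21 had a fold of 16.4 there, and the motif of 22.2 bits points against the transcription of Cry1. The highest promoter peak of the 10 genes was also at Cry1, at chr10:84646299-84647099, 1242 bp into the gene. Its CTCF fold was 16.4 at 491 fragments and its Rad21 fold 7.24, and its best motif score, 10.8 bits, was under the threshold of 13.1. A second CTCF promoter peak had a fold of 2.12, and the Rad21 peaks that overlap it had 2.62 and 2.34.

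Cry2 (ENSMUSG00000068742.5, chr2:92243803-92274200, minus strand) had promoter peaks of both lists on either side of its start. The CTCF peaks at chr2:92273929-92274157 and chr2:92274312-92274556 had folds of 2.52 and 2.53, under the 2nd percentile of the list, and the Rad21 peaks there had 5.32 and 2.77. The highest peak of both lists was 4154 bp upstream of the start, at chr2:92278076-92278559, with a CTCF fold of 16.6, a Rad21 fold of 12.3 and a motif of 16.1 bits. Inside the gene, a shared intron peak at chr2:92262508-92263242 had a CTCF fold of 10.8 but a Rad21 fold of 3.03.

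Nr1d1 (ENSMUSG00000020889.10, chr11:98629246-98636647, minus strand) overlaps the 3' end of Thra, the thyroid hormone receptor gene on the opposite strand. Peaks were dense here, with 17 CTCF and 19 Rad21 peaks in the window, of which 15 of each were shared. The shared promoter peak had a CTCF fold of only 2.38 at 37 fragments (chr11:98636305-98636538) and a Rad21 fold of 3.14 at 65 fragments, over local backgrounds of 2.38 and 3.99 times the genome-wide values. The highest CTCF fold was 22.8, in a Thra intron at chr11:98615935-98616459, the peak whose motif ends in an E-box, and the Rad21 fold there was 9.11. The highest Rad21 fold was 9.95, in an exon of Med24. Between 8246 and 13631 bp upstream of Nr1d1 stood 4 shared peaks on the highest local background of any window, 6.32 to 7.49 times the genome-wide value for CTCF. The highest of these, at chr11:98648191-98648599, had 530 CTCF fragments and 355 Rad21 fragments with folds of 11.1 and 9.71, and it carried no motif (6.16 bits). The Lone CTCF peak with the printed 22 bit motif stood among them with a fold of 2.11.

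Nr1d2 (ENSMUSG00000021775.9, chr14:19036568-19071641, minus strand) had the sparser window of the nuclear receptor pair, with 8 CTCF and 6 Rad21 peaks. At the 5' end, the CTCF peak at chr14:19070672-19071608 had a fold of 8.12, and the 2 Rad21 peaks that overlap it had 3.96 and 4.54. A shared peak in an intron at chr14:19043273-19043660, 615 bp from an internal annotated start, had a CTCF fold of 11.5 and a Rad21 fold of 11.8, without a motif at the threshold (10.4 bits). Downstream lay the highest peaks, a CTCF fold of 24.2 at chr14:18999528-18999961 and a Rad21 fold of 24.4 at chr14:19019526-19019908. The CTCF peak at the second of these had a fold of 24.1, above 97.4% of the list, with a best motif score of 8.92 bits. Local CTCF background was low across this window, at a median of 1.02 times the genome-wide value, against 3.31 times in the Nr1d1 window.

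Dbp (ENSMUSG00000059824.4, chr7:52960458-52965525, plus strand), the output factor, is the shortest of the genes with a span of 5.07 kb. Its promoter peaks were low, with shared CTCF folds of 2.93 at chr7:52960859-52961208 and 3.98 at chr7:52961972-52962373, both over coding exons. The Rad21 peaks there had folds of 2.27 and 2.78. The highest peaks flanked the gene at a distance. The CTCF peak at chr7:52938027-52938664, in an intron of Sec1, had a fold of 23.2 with 527 fragments, and the Rad21 peak at chr7:52994661-52995131, in an intron of Sult2b1, had 20.7 with 258 fragments.

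Sites with cohesin but without CTCF are known to gather at enhancers in liver. Here the class rests on overlap of the merged lists alone, and no enhancer mark was used. Cohesin-only peaks lay in the spans of 5 of the 10 clock genes, against 22.7% of all genes. The clock genes had a median span of 38 kb against 15.5 kb over all genes, though Per1, Nr1d1 and Dbp were shorter than 15.5 kb. Longer spans can hold more peaks, and the part of span length was not tested. Of the 21 cohesin-only peaks in the windows, 11 were in spans, with folds of 2.62 to 4.18. Cry2 had the most, 5 intron peaks with folds of 4.14, 2.78, 2.89, 3.17 and 2.75, and in its window cohesin-only peaks made up 46.7% of Rad21 peaks, against a median of 16.7% over all genes. Per2 had 3 intron peaks, with folds of 4.15 at chr1:93317482-93317796, 4.18 at chr1:93332811-93333588 and 3.13 at chr1:93352447-93352886. Arntl had 1 at chr7:120362936-120363278 (3.44), Clock had 1 at chr5:76682553-76682850 (3.15) and Nr1d1 had 1 at chr11:98635506-98635739 (2.62). The Nr1d1 peak was the only one of the 21 within 1 kb of a start of the clock gene itself, a call that 11% of all genes have, and 5 more lay at promoters of other genes. The number of clock genes with such a promoter peak was 6 when sharing required summits within 100 bp (27.6% of all genes), 3 when it required an overlap of 50% of the shorter peak (12.5%), and 0 with promoters of 500 bp (8.42%). Per1, Per3, Nr1d2 and Dbp had none in the span, and Cry1 had 2 of its 3 window peaks 5225 and 5613 bp upstream of its start. The 21 had a median fold of 2.9 against 3.48 for the cohesin-only class, and 4 of them were above that class median (4.15 and 4.18 at Per2, 4.14 at Cry2 and 3.68 downstream of Nr1d1). Weak CTCF binding below the calling threshold cannot be told apart from its absence.

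The nearest shared peak outside the span lay at a median of 10.4 kb upstream (18.2 kb over all genes) and 10.5 kb downstream (16.7 kb over all genes). With peaks at a −log10 q of at least 10 these medians were 26.3 kb upstream (25.2 kb over all genes) and 21.7 kb downstream (22.5 kb), and with peaks at a fold of at least 5 they were 28.3 kb (31.9 kb) and 21.8 kb (28.8 kb). On 10 of the 20 sides, the nearest shared peak lay within 10 kb of the span, against 36.3% of the sides of all genes. This count was 6 of 20 at a −log10 q of at least 10 (28.9%) and 2 of 20 at a fold of at least 5, where it was under the 23.2% of all genes. The shortest distances were 0.112 kb upstream of Cry2 and 0.325 kb upstream of Arntl, which are the genes' own promoter peaks, then 1.49 kb downstream of Per2 and 2.39 kb upstream of Per1. On the downstream side the distances were 3.02 kb at Cry1, 4.86 kb at Dbp, 4.87 kb at Nr1d1, 7.96 kb at Per1, 13 kb at Per3, 14.3 kb at Cry2, 16.6 kb at Nr1d2, 26.7 kb at Clock and 54.8 kb at Arntl. On the upstream side they were 5.88 kb at Per2, 8.02 kb at Nr1d1, 12.7 kb at Per3, 21.8 kb at Dbp, 35.8 kb at Cry1, 45.5 kb at Nr1d2 and 55.3 kb at Clock. Arntl and Clock, the activators and the longest of the genes (107 and 93.8 kb), had the widest intervals between nearest shared peaks, 162 and 176 kb, and Nr1d1 the narrowest, 20.3 kb.

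Of these 20 nearest peaks, 4 carried a CTCF motif, downstream of Per3 and Nr1d1 and upstream of Cry1 and Dbp, against 52.9% of the nearest flanking shared peaks of all genes. The count was 8 with peaks at a −log10 q of at least 10 (60.2% over all genes) and 10 with peaks at a fold of at least 5 (66.8%). The others had a wide range of folds. The nearest shared peak downstream of Per1 had a CTCF fold of 2.36 and that downstream of Cry2 had 2.7, while that downstream of Nr1d2 had 24.1. The nearest shared peak with a motif lay farther out, at a median of 35.4 kb from the span, from 3.88 kb upstream of Cry2 to 267 kb upstream of Nr1d2. The interval between the motif-bearing flanks had a median of 104 kb against 136 kb over all genes, from 56 kb around Dbp to 339 kb around Nr1d2.

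The motifs of these flanking pairs faced each other at 1 of the 10 genes, Per1, where a plus-strand motif upstream and a minus-strand motif downstream enclosed 83.1 kb. Over all genes, 27.8% had such a convergent pair, and the shares of pairs pointing apart or the same way were not computed. At Per3, Cry1 and Dbp the motifs pointed away from each other, and at Arntl, Clock, Per2, Cry2, Nr1d1 and Nr1d2 both pointed the same way. At these 6 genes both motifs pointed in the direction in which the gene is transcribed, which held for 24% of all genes with a motif on each side. Downstream, the motif pointed along transcription at 9 of 10 genes, all but Per1 (50% over all genes), and upstream at 7 of 10, all but Per3, Cry1 and Dbp (52.1%). The direction along transcription was looked at after the values had been plotted. No test was made on it, and 10 genes allow a wide range of shares.

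**Figure D3:**
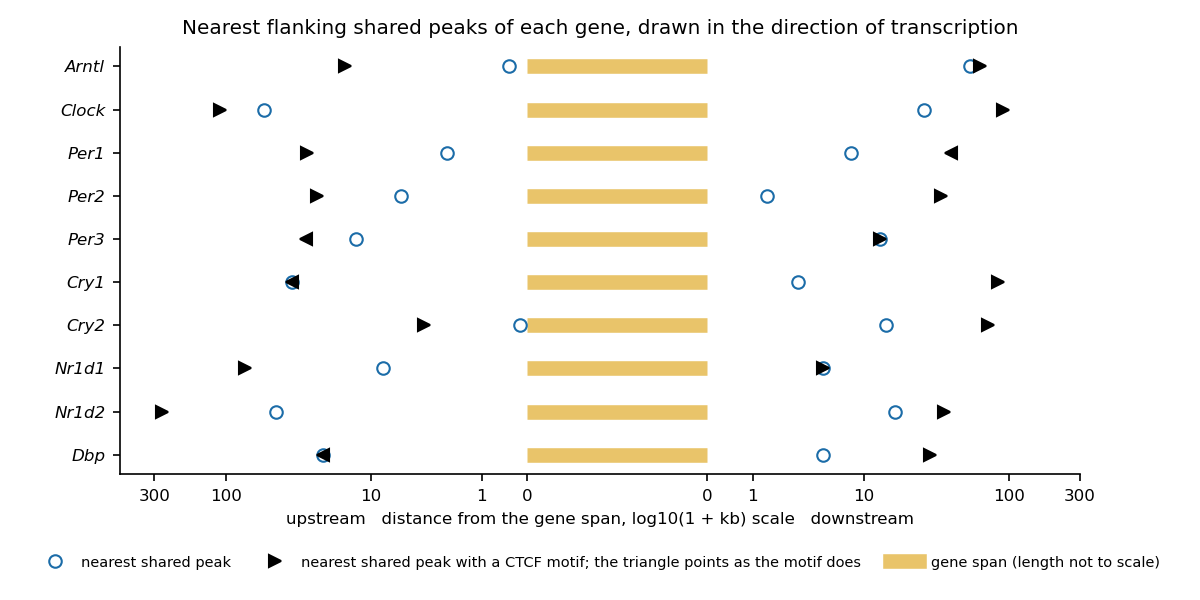
For each clock gene, drawn in the direction of transcription, the distance from the gene span (x axis, log10(1 + kb) scale) to the nearest shared peak (blue circle) and to the nearest shared peak with a CTCF motif (black triangle, pointing as the motif does) is plotted on each side. Downstream, 9 of 10 triangles point away from the gene in the direction of transcription, and only at Per1 do the triangles of both sides face each other.

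The order of the peaks in a window depended on the measure of height. By fold enrichment and by fragments at the summit, the highest peak was the same in 12 of 20 cases (10 genes, 2 lists). For CTCF it changed at Clock, where the promoter peak with 102 fragments led, at Per1, where the peak 2.68 kb upstream led with 513, at Per3, where a peak downstream led with 327, and at Cry1, where the promoter peak led with 491 over the intron peak with 426. At Nr1d1 the upstream peak with 530 fragments led over the Thra intron peak with 522. By fragments these CTCF peaks were above 98% (Per1), 97.7% (Cry1) and 98.3% (Nr1d1) of the list. For Rad21 it changed at Clock, at Per3 and at Nr1d1, where the upstream peak led with 355 fragments over the 126 of the peak in Med24.

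**Figure D4:**
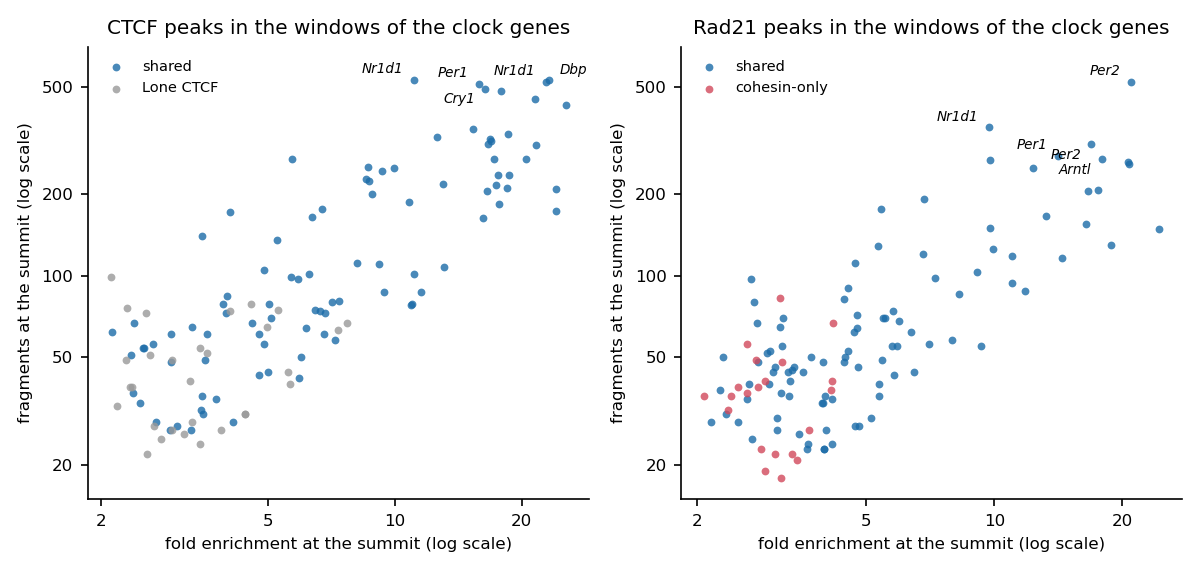
Each point is a CTCF peak (left) or Rad21 peak (right) in a window of the clock genes, with fold enrichment on the x axis and fragments at the summit on the y axis, both on log scales, and the 5 peaks with the most fragments named by gene. The Nr1d1 peaks with 530 CTCF and 355 Rad21 fragments stand at folds of 11.1 and 9.71, to the left of the other named peaks.

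The same promoter calls were made for 16 clock-associated genes, a list of further activators, repressors, kinases and ubiquitin pathway proteins of the clock. A shared promoter peak was called at 14 of the 16 (49.5% of all genes) and a Rad21 promoter peak at 15, all but Gm129 (53.3%). Cohesin-only promoter peaks were called at 6 of 16, among them Bhlhe40, Hlf, Csnk1d, Nfil3 and Tef, against 1 of the 10 core genes and 11% of all genes. Cohesin-only peaks lay in the span of 8 of 16 (22.7% of all genes), with 20 in the 734 kb of Rora, 7 in Hlf and 4 in Npas2. Tef and Hlf, which like Dbp encode D-box-binding factors, had 5 and 3 shared CTCF promoter peaks, against 2 at Dbp. Convergent motif-bearing flanks were found at 9 of 16, against 27.8% of all genes.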

How the data were processed

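CTCF and Rad21 ChIP-seq peaks of female mouse liver were analysed as deposited. Per the labels and methods, the authors aligned the reads with Bowtie2 (mm9, unique hits only), merged the libraries of each antibody (4 CTCF, 3 Rad21), called peaks with MACS2 and removed blacklisted regions and peaks made of duplicate reads. Whether an input control was used is not given in the sources used here. The deposited lists give, for each peak, a fold enrichment (ratio), −log10 p and q-values, a score and a summit. Read depth per library is not in the lists, and no value has a replicate error. Sites below the calling threshold are missing from the lists, and their number depends on depth.

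Fragments at the summit and the local background were recovered by solving the deposited fold enrichment and p-value together, which gave whole fragments for 99.83% of CTCF and 99.99% of Rad21 peaks (tolerance 0.001 in −log10 p). The genome-wide background was 6.28 and 5.03 fragments. This step was added after the data were seen. Peaks were shared when at least 1 bp overlapped, and promoters reached 1 kb from any start of a protein-coding transcript (GENCODE vM1, of the build of the lists). The training set of the CTCF matrix was 1000 CTCF peaks (odd-numbered autosomes, fold enrichment of at least 23.9, 50 bp to each side), none of them a peak described for the clock genes, and a match needed 13.1 bits. Overlap counts, pileup and motif search were tested on simulated data. Python 3.11.15, pysam 0.24.0, pandas 2.3.3 and samtools 1.23.1 were used.

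The 10 genes, the list of 16 and all named items were chosen with earlier results of these data known. The text names all promoter peaks, cohesin-only peaks in spans, the highest peaks of each list, nearest flanking shared peaks and extremes. Other peaks were named after their values were seen. The values of 1 gene of the list of 16 are not reported here.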

Additional observations from a re-analysis of the deposited data

How the results depend on the processing

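The main counts and distances, 16 in all, were recomputed under 11 alternatives where they apply, giving 95 values, of which 58 stayed within 1.5 times the main value. At −log10 q of at least 10, the windows held 58 shared CTCF, 60 shared Rad21 and 12 cohesin-only peaks, 6 genes had a shared promoter peak (not Per1, Cry2, Nr1d1 and Dbp), the nearest shared peaks lay 26.3 kb upstream and 21.7 kb downstream, and 8 of them carried a motif. At a fold enrichment of at least 5, these values were 40, 40, 4, 4 genes, 28.3 kb, 21.8 kb and 10, and 5 genes had a CTCF (36.1% of all genes) and 6 a Rad21 promoter peak (30.3%), with 2 cohesin-only peaks in the spans of 2 genes (10.4%). The stricter lists also moved peaks between classes: of the 12 cohesin-only peaks at −log10 q of at least 10, 8 were shared in the full lists and 4 were among the 21, and all 4 at a fold of at least 5 were shared in the full lists. With sharing defined by summits within 100 bp, 46 peaks were Lone CTCF, 41 cohesin-only, 20 of them in the spans of 8 genes (36.2% of all genes), and 8 nearest shared peaks carried a motif (58% over all genes). A cohesin-only promoter peak, at 1 gene in the full lists, was called at 3 genes at either stricter threshold (7.19% and 5.78% of all genes) and at 2 with promoters of 2500 bp (13.7%). Windows of 20 kb held 58 and 61 shared peaks, and windows of 100 kb held 49 Lone CTCF and 32 cohesin-only peaks. Of the nearest shared peaks, 9 carried a motif at the 5% background rate (69.1% over all genes) and 7 within 50 bp of the summit (56.5%), where 2 genes had convergent flanks (27.9%), and 5 of the 15 shared CTCF promoter peaks passed at the 5% rate. The fewer shared peaks follow from the stricter lists and narrower windows, and the cause of the other shifts was not tested. The downstream motif pointed along transcription at 8 or 9 of 10 genes in all 6 alternatives, which were added after the data were seen. The share of all genes was computed only for the main setting (50%), and the alternatives draw on the same peak lists. No paired analysis was possible because each list was called on pooled libraries, and for the same reason no library could be left out.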
